A study of Mus musculus with 13 samples.

Results

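The nuclei described here are fibroblasts of the brain's coverings and vessels that were captured together with the hippocampus. A barcode was counted as one of them when at least 3 of 6 genes (Slc6a13, Col1a2, Bnc2, Cped1, Ranbp3l and Slc47a1) were detected in it and their unique molecular identifiers (UMIs, each standing for 1 captured RNA molecule) summed to at least 15 per 10000. This rule found 734 nuclei among 105427 retained barcodes, 0.696% of all. The members were thus chosen by their measured UMIs of these 6 genes, and every comparison of members with other barcodes is a description. The study sequenced single nuclei of whole frozen hippocampi of female C3HB6F1 hybrid mice, sorted on a DNA dye before droplet capture, with 1 library for each of 13 mice. Young mice (3) fed ad libitum were taken at 5 months. Old mice were all taken at 24 months and were fed ad libitum throughout (3, numbered 1, 2 and 4), restricted only from 20 months, called acute restriction here (3), or restricted from 5 months, called long-term restriction (4). No group carries an engineered allele in the labels.

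Meningeal fibroblasts build the pia, arachnoid and dura that wrap the brain, and perivascular fibroblasts follow the larger vessels into the tissue. They lay down collagens and the laminins of the outer basement membrane, and they secrete signals such as retinoic acid and bone morphogenetic proteins. The arachnoid layers also carry transporters that move solutes between cerebrospinal fluid, blood and tissue. In a dissected hippocampus such cells can come from coverings that remain attached and from the vessels inside, and their source was not measured here. How much of these covers each library held was not measured. Fewer such cells and fewer nuclei recovered from them cannot be told apart.

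The 13 libraries held 3516 to 12336 retained barcodes each, from 38546292 to 80538090 UMIs in total. Old ad libitum mouse 1 stood apart with the fewest barcodes and the highest median depth, 11375 UMIs. The 4 libraries numbered 1 contributed 375 of the 734 fibroblast nuclei and had the highest fibroblast share in each of the 3 old groups. They also held fewer barcodes that met the rule for oligodendrocytes, 70 to 233 against 762 to 1874 in the other libraries. Of 104066 distinct barcode sequences, 1351 occurred in more than 1 library, and 1 was shared between fibroblast nuclei of different libraries. The fibroblast nuclei were shallow, with a median of 2387 UMIs and 1399.5 genes against 6301 UMIs and 2586 genes in the other barcodes. A doublet score computed per library marked 80 of them (10.9%) against 7.01% of all barcodes, and they were kept in the main values. Of the 734, 169 also met the corresponding rule for another class, most often neurons (99) or astrocytes (39). By contrast, 3 met the rule for mural cells (pericytes and smooth muscle), 1 that for endothelial cells, and none those for macrophages, microglia, ependyma or choroid plexus epithelium.

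The rule had a soft edge. The summed UMIs of the 6 genes ran from 15.0 to 299 per 10000 with a median of 73.1. Just inside the threshold, 25 nuclei lay at 15 to 20 per 10000, and just outside it 30 lay at 10 to 15, with median depths of 7603 and 9313 UMIs. Of the 25 just inside, 23 fell in subgroups that also carried genes of neurons or glia. Another 422 barcodes had enough UMIs of these genes but only 1 or 2 of the 6 detected.

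The 6 genes were detected in different combinations. Since a member needed 3 of the 6, the counts of genes found together are partly fixed by the rule and are descriptions. Slc6a13, a transporter of taurine and gamma-aminobutyric acid (chr6:121300227-121337733, plus strand), had a UMI in 435 members. Slc47a1, an exporter of organic cations (chr11:61343401-61378345, minus strand), had one in 204 members, and only 2 members had both. Almost all nuclei with Slc47a1 (203 of 204) held Bnc2, a zinc-finger transcription factor (chr4:84275095-84675275, minus strand), while only 8 held Ranbp3l, a Ran-binding protein (chr15:8967949-9067335, plus strand). Ranbp3l was instead found with Slc6a13, in 419 of the 435 nuclei that held the transporter. Cped1 (chr6:21985916-22256404, plus strand) spanned both kinds with 714 members, and Col1a2, a chain of type I collagen (chr6:4504814-4541544, plus strand), was found in 364. Coordinates are those of GENCODE vM21 on GRCm38 (mm10). No nucleus held all 6 genes, and 343 qualified with exactly 3.

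Detection of the rule's genes in a cell type that should lack them was low for 4 of the 6 and higher for 2. Barcodes that met the fibroblast rule were left out of the granule neuron, mural, endothelial and macrophage classes whose gene values are given. Of the fibroblast nuclei, 45 met the granule neuron rule. Low detection of the rule's genes in these classes is thus partly fixed by the rule, and the values are descriptions. In 48084 granule neurons, which should lack them and were deeper (median 6626 UMIs), Slc6a13 had a UMI in 0.114%, Slc47a1 in 0.110% and Bnc2 in 0.245%, against 59.3%, 27.8% and 59.4% of the fibroblast nuclei. Col1a2 had one in 0.0977% against 49.6%. Cped1 and Ranbp3l had a UMI in 1.99% and 2.60% of granule neurons, against 97.3% and 69.8% of the fibroblast nuclei. Mural cells shared some of these genes: Cped1 had a UMI in 64.2% of them and Slc6a13 in 8.30%. Bnc2 and Ranbp3l had one in 0.377% and 1.13% of mural cells, and Slc47a1 in none. Endothelial cells held Cped1 in 14.2%. Ptgds, the abundant prostaglandin D2 synthase of the leptomeninges, showed more spread of this kind, with a UMI in 17.8% of granule neurons and 78.1% of fibroblast nuclei.

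Across the 8 mice with at least 20 fibroblast nuclei, transporters, transcription factors and matrix genes led the genes that set these nuclei apart from the other barcodes of the same mouse. Values are log2 ratios of CPM (UMIs per 1000000 UMIs of the summed nuclei, with 10 added), and they are descriptions because the rule used this contrast. Bnc2 itself led with a median ratio of 7.27 (5.76 to 7.73 over the 8 mice). Of genes outside the rule, Slc6a20a, a transporter of proline and related imino acids, led with 6.63. Bmp6, a bone morphogenetic protein ligand, followed with 6.33 and Ptgds with 6.16. Summed over all members, Ptgds stood at 7623 CPM against 64.0 CPM in the other barcodes.

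Further transport genes were higher in the fibroblast nuclei. Slc7a11, the cystine and glutamate exchanger, had a median log2 ratio of 5.52, and Slc26a7, an anion exchanger, one of 4.67. Of 30 solute carriers and other transporters listed for the leptomeninges, all 30 had at least 20 UMIs in the members. Without the rule genes Slc6a13 and Slc47a1, 21 of 28 were more than 2-fold higher than in the other barcodes, with a median log2 ratio of 2.82. Among all 10992 genes with at least 20 UMIs, 13.8% were more than 2-fold higher and the median was 0.24. The list was assembled from known leptomeningeal genes, so its place above that background is no independent evidence.

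Regulators of mesenchymal identity came next. Eya2, a transcriptional coactivator and phosphatase, had a median log2 ratio of 5.84. Prdm6, Zic4, Tbx15 and Zic1, all transcriptional regulators, had 5.39, 5.00, 4.89 and 4.71. Of 31 measured genes of the mesenchymal transcription factor list other than the rule gene Bnc2, 24 were more than 2-fold higher, against 13.8% of all genes. That list was assembled from known mesenchymal genes, so its place above that background is no independent evidence either. Zic1 and Zic4 were also high in mural cells, at 439 and 310 CPM against 313 and 373 CPM in the fibroblast nuclei, whereas Eya2 and Prdm6 were at 0 there.

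Matrix genes were also higher in the fibroblast nuclei. Lama1, the laminin alpha chain of the pial basement membrane, had a median log2 ratio of 5.44, and Col4a6, a type IV collagen chain, one of 4.74. The metalloprotease gene Adam12 had 5.17 and Adamtsl3, a secreted relative of such proteases, 5.98. Of 21 measured fibrillar collagens and assembly factors other than the rule gene Col1a2, 16 were more than 2-fold higher, as were 12 of 17 basement membrane genes and 16 of 20 proteoglycans and elastic matrix genes, against 13.8% of all genes. Detection of the fibrillar chains varied, with Col1a1 in 11.4% of these nuclei, Col3a1 in 10.6% and Col5a2 in 27.1%. The rule gene Col1a2 was detected in 364 of the 734 nuclei. Of 15 genes of activated, scar-forming fibroblasts, 8 had at least 20 UMIs over all members. Of these 8, 4 were more than 2-fold higher, against 13.8% of all genes. The matrix and scar lists were assembled from known genes of fibroblasts, so their places above that background are no independent evidence. Fap, the fibroblast activation protein gene, was found in 8.86% of nuclei.

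**Figure D1:**
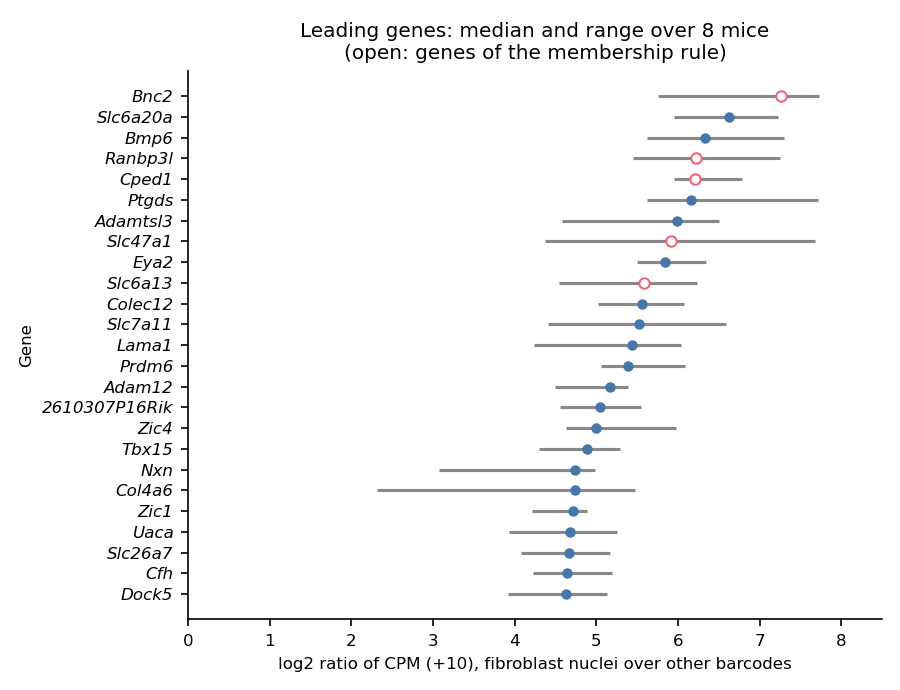
The 25 leading genes on the vertical axis, with the log2 ratio of CPM plus 10 in fibroblast nuclei over the other barcodes of the same mouse on the horizontal axis. Points are medians and lines the range over the 8 mice with at least 20 fibroblast nuclei; open points are genes of the membership rule. All 25 ratios lay above 0 in every one of these mice, from Bnc2 at 7.27 downwards.

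Several of these genes were shared with neighbouring vascular cells. Slc6a20a stood at 1494 CPM in the fibroblast nuclei and 1249 CPM in mural cells, and Lama2, another laminin alpha chain, at 945 and 1347 CPM. Colec12, a scavenger receptor, reached 1070 CPM in fibroblast nuclei, 1362 CPM in mural cells and 1681 CPM in border macrophages. Bmp6 and Slc47a1 were at 0 in mural cells, and Slc26a7 was at 0 in endothelial cells, mural cells and macrophages alike. Cxcl12, a chemokine, went the other way, with 80.6 CPM in fibroblast nuclei and 1031 CPM in endothelial cells.

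Clustering of the 734 nuclei gave 9 subgroups, numbered by size. In 4 of them (30, 26, 25 and 13 nuclei; numbers 5, 6, 7 and 9) all 6 listed markers of astrocytes, granule neurons, neurons in general or oligodendrocytes were raised. These 94 mixed nuclei had a median of 5991.5 UMIs against 2254 in the other 640. The doublet score marked 71 of them, and 92 met another class's rule. The remaining 5 subgroups were mostly free of such markers and are described by their leading genes. Since each cluster was made from these genes, the values below are descriptions. The subtype markers pointed to several layers at once, so no subgroup is given a cell type name.

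Subgroup 1 was the largest, with 243 nuclei from 12 of the 13 mice, and Igfbp2 and Igf2 were among its 3 leading genes. Igfbp2, an insulin-like growth factor binding protein, was found in 55.6% of its nuclei at 572 CPM, against 54.8 CPM in the other members. Igf2, a growth factor of that family, stood at 187 CPM against 21.5 CPM. Igfbp5, a second binding protein of the family, was at 51.5 CPM here and highest in subgroup 2 at 401 CPM. Subgroup 1 also held transporters of the inner arachnoid list, of which 6 of 8 markers were raised relative to the other members. That list includes the rule genes Slc6a13 and Ranbp3l. Slc6a13 was found in 82.7% of its nuclei, Slc22a6, an organic anion transporter, in 32.9%, and Slc47a1 in none. Aldh1a2, which makes retinoic acid, was found in 58.8% of its nuclei at 650 CPM and in 1.63% of subgroup 2 at 7.75 CPM. Complement C4b was at 133 CPM here and at 30.4 CPM or less in subgroups 2, 3, 4 and 8.

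Subgroup 3, with 101 nuclei, shared Slc6a13 (94.1%) and Ranbp3l (100%) with subgroup 1 but held Bnc2 in 97.0% of its nuclei, against 29.6% in subgroup 1. It was led by Nnat, a small membrane protein gene imprinted in the mouse, with 7632 CPM against 597 CPM in the other members. Ppp1r1a, an inhibitor of protein phosphatase 1, stood at 1103 against 83.1 CPM. Aifm3 and the growth factor gene Fgf1 followed, at 1085 and 264 CPM. Ptgds was highest in this subgroup at 22363 CPM, with a UMI in all of its nuclei, and reached 13879 CPM in subgroup 1. Inner arachnoid markers were again the most numerous among those raised (4 of 8), in a count that includes the rule genes Slc6a13 and Ranbp3l.

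Subgroup 4, with 95 nuclei and present in every mouse, was the one with the most perivascular fibroblast markers raised (5 of 8). Col15a1, a collagen of the outer basement membrane zone, was found in 23.2% of its nuclei at 182 CPM, against 9.83 CPM elsewhere. Lama1 stood at 2532 CPM and Col4a6 at 1286 CPM. Cemip, which takes part in breaking down hyaluronan, reached 3884 CPM against 457 CPM, and Itih5, a hyaluronan-binding serum protein family member, 2061 against 202 CPM. Pdgfra, the platelet-derived growth factor receptor, was at 516 CPM and Dcn, the proteoglycan decorin, at 648 CPM. Bnc2 was nearly absent, with a UMI in 4.21% of these nuclei.

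Subgroup 2, with 184 nuclei, was the population of Slc47a1, found in 95.7% of its nuclei, and of Bnc2, found in all. Slc6a13 was found in 0.543% and Ranbp3l in 1.63%. Its leading genes included further transporters: Slc26a7 at 953 CPM against 37.97, Slc4a10, a bicarbonate transporter, at 6526 against 367, and Slc47a2, a second organic cation exporter, at 349 against 14.9 CPM. The secreted factors Slit2, a guidance cue, and Rspo3, an enhancer of Wnt signalling, stood at 3147 and 1137 CPM. Markers of more than 1 layer were raised: 3 of the 8 dural markers and 2 of the 8 arachnoid barrier markers. The arachnoid barrier list includes the rule gene Slc47a1. Mgp, an inhibitor of calcification, was found in 69.6% of its nuclei, and Cdh1, epithelial cadherin of the arachnoid barrier, in 33.7%. Lama1, Col4a6 and Slc6a20a, abundant in subgroups 1, 3 and 4, were at 11.6, 3.87 and 1.94 CPM.

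Subgroup 8 was small, with 17 nuclei from 6 mice, 8 of them from long-term restriction mouse 1, and the doublet score marked 6. Cubn, an endocytic receptor, was found in 70.6% of its nuclei, Prg4, the lubricating proteoglycan, in 94.1%, and Fn1, fibronectin, in 94.1%. Dpp4, a surface peptidase, was found in 64.7% and Cdh1 in 64.7%. Of the 8 arachnoid barrier markers 3 were raised. Slc47a1 had no UMI in any of the 17 nuclei, which allows a share of nuclei with a UMI of up to 17.6%. That limit covers the number of nuclei only, not the chance of missing the gene's RNA in a shallow nucleus.

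**Figure D2:**
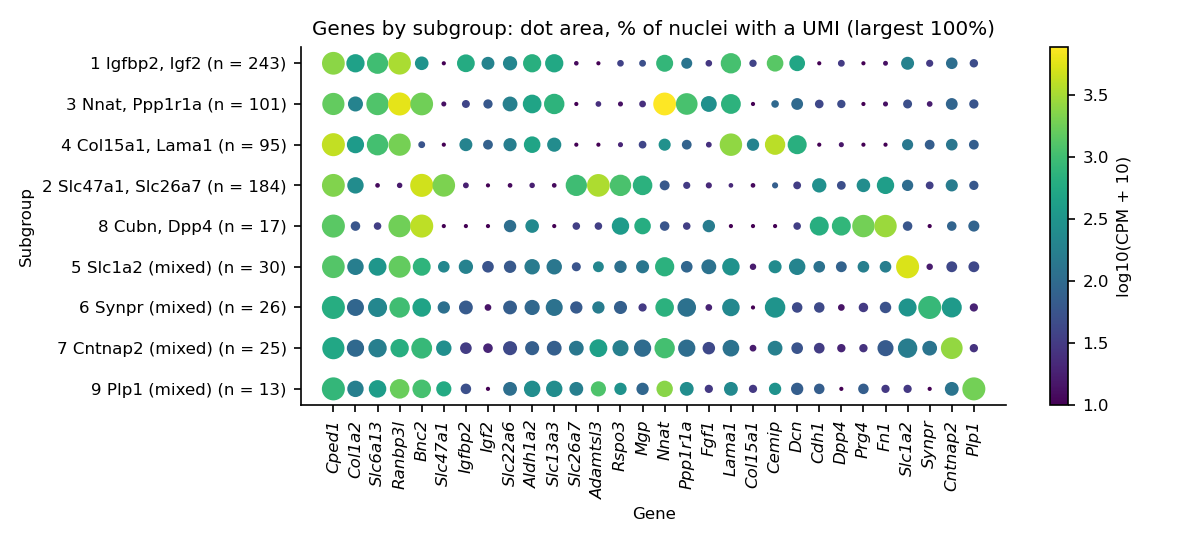
Subgroups in rows, with their number, leading genes and nuclei, and selected genes in columns. Dot area is the percentage of nuclei with a UMI and colour the log10 of CPM plus 10. Among the 5 unmixed subgroups Slc6a13 is frequent in 1, 3 and 4 and Slc47a1 in 2, while the 4 lowest rows hold both genes and carry a marker of astrocytes, neurons or oligodendrocytes.

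Several single genes had unequal levels in the 5 unmixed subgroups, and they were picked here after their values were seen. Bmp6 ranged from 390 CPM in subgroup 8 to 3503 CPM in subgroup 1, and Slc7a11 from 34.9 CPM in subgroup 2 to 6238 CPM in subgroup 4. Egfr, the epidermal growth factor receptor, was at 1278 CPM in subgroup 2 and 50.6 CPM in subgroup 4. Fkbp5, a target of the glucocorticoid receptor, was at 1218 CPM in subgroup 2 and 218 CPM in subgroup 4. Rora, a nuclear receptor of the clock, was at 7730 CPM in subgroup 1 and 972 CPM in subgroup 2. By contrast Lama2 (802 to 1585 CPM), Zic1 (267 to 481 CPM) and Tgfbr3, a co-receptor for transforming growth factor beta (679 to 873 CPM), varied little across all 5.

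The mix of subgroups varied between mice. Among unmixed nuclei, the Slc47a1-rich subgroup 2 made up 25.0%, 52.6% and 37.5% in the young mice. It made up 11.8%, 16.7% and 25.0% in the old ad libitum mice, 19.5%, 0% and 38.9% in the acutely restricted mice, and 25.6%, 42.9%, 45.5% and 31.1% in the long-term restricted ones. The 4 long-term restriction mice lay just above the 3 old ad libitum mice (nearest values 25.6% and 25.0%), while the other pairs of groups overlapped or met at 25.0%. The old ad libitum values stand for 8 of 68, 1 of 6 and 2 of 8 nuclei, so this gap rests on very few nuclei. Subgroup 4 made up 18.8%, 10.5% and 29.2% in the young mice, 25.0%, 66.7% and 37.5% in the old ad libitum mice, 17.2%, 77.8% and 9.47% after acute restriction and 10.6%, 4.76%, 27.3% and 6.76% after long-term restriction. The groups overlapped, and the highest share, in acute restriction mouse 2, stood for 7 of 9 nuclei. Subgroup 3 made up 0%, 10.5% and 4.17% in the young mice, 5.88%, 16.7% and 0% in the old ad libitum mice, 19.5%, 0% and 21.1% after acute restriction and 15.0%, 19.0%, 0% and 27.0% after long-term restriction. For subgroup 3 too the groups overlapped, and each 0% came from a mouse with 8 to 16 unmixed nuclei. These mixes were not tested, because the clusters were made from the same nuclei and 5 mice held fewer than 20.

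**Figure D3:**
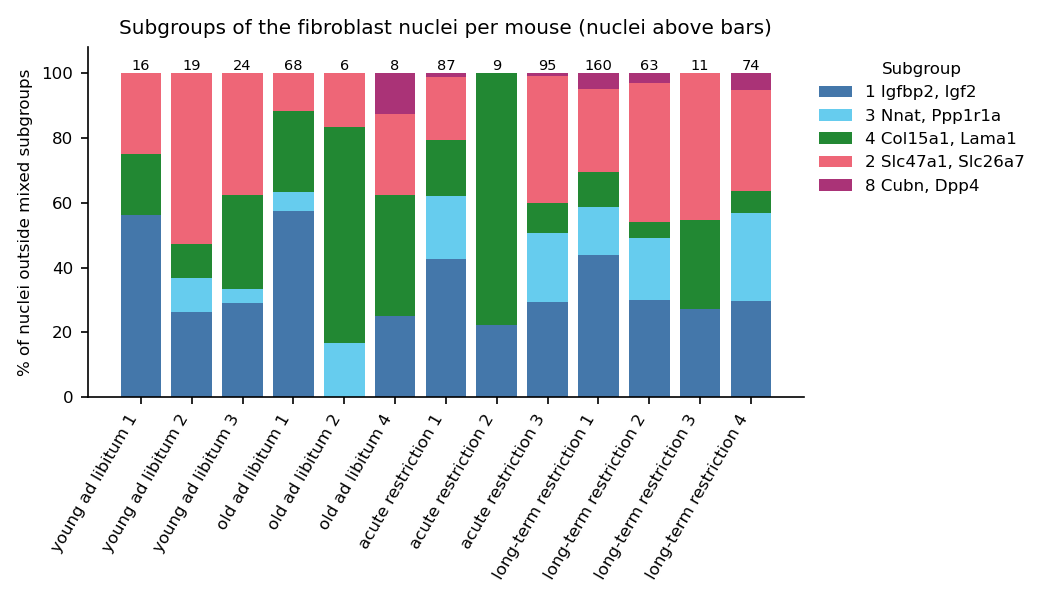
Percentage of the unmixed fibroblast nuclei of each mouse, on the vertical axis, that fell in each of 5 subgroups, with the number of nuclei above each bar. Bars that rest on 6 to 16 nuclei vary most; subgroup 2 was largest in young mouse 2 (52.6%).

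The first question of the design is whether ageing or restriction changed how many such nuclei were recovered. The share of retained barcodes was 0.206%, 0.231% and 0.328% in the young mice. It was 2.16%, 0.0696% and 0.121% in the old ad libitum mice, 1.08%, 0.139% and 0.859% in the acute restriction group, and 1.81%, 0.966%, 0.251% and 1.14% in the long-term group. The young mice lay close together, while each old group spanned a range of at least 7-fold and the groups overlapped. Old ad libitum mouse 1 held the highest share of all (76 of 3516 barcodes, 95% Wilson interval 1.73% to 2.70%), and the other 2 mice of its group the lowest of all. Intervals cover counting error only.

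None of the 4 comparisons of shares differed beyond the spread between mice. Long-term restriction was higher than old ad libitum by 1.64 in log2 odds (4 against 3 mice, exact two-sided permutation test, p = 0.314, adjusted over the 4 comparisons 0.971). Acute restriction was higher by 0.90 (exact permutation p = 0.8), and old ad libitum differed from young by 0.11 (exact permutation p = 1). Long-term exceeded acute restriction by 0.73 (exact permutation p = 0.486). With 3 against 3 mice the test cannot go below 0.1, and with 4 against 3 not below 0.029. Without old ad libitum mouse 1, the ageing difference turned to -1.39, and the long-term difference grew to 3.14 (exact permutation p = 0.0667, the smallest that 4 against 2 mice allow). With each barcode thinned to 2000 UMIs and shallower ones left out, the ageing difference was 1.44 (exact permutation p = 0.6). Within the libraries numbered 2 or higher the ageing difference was -1.53, the long-term difference 2.77 and the acute difference 1.87, with 2 or 3 mice a group. Without acute restriction mouse 2, the long-term against acute difference turned to -0.18.

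**Figure D4:**
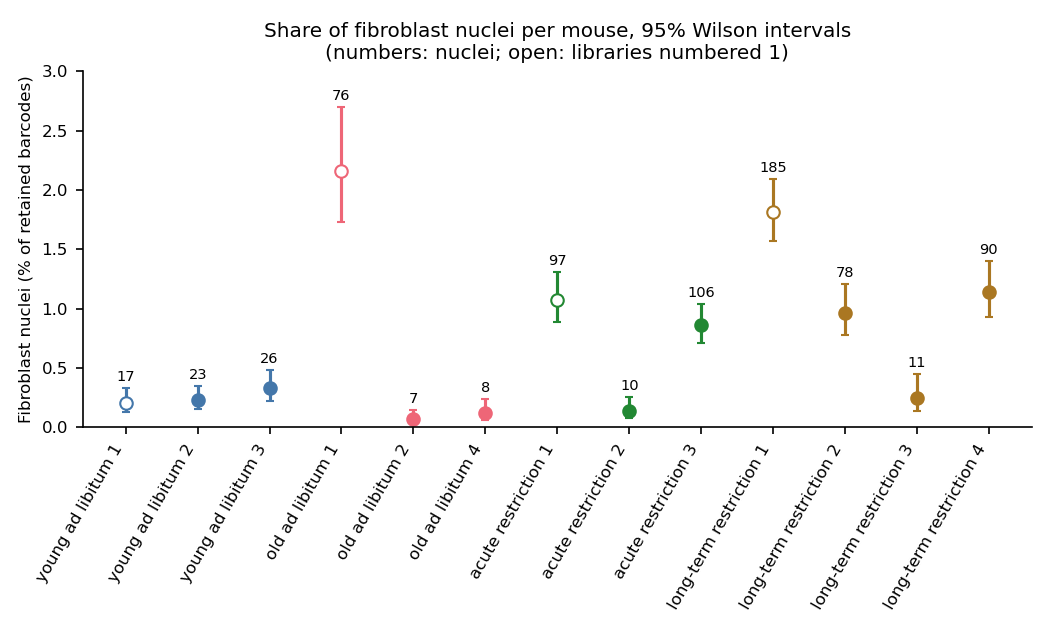
Fibroblast nuclei as a percentage of retained barcodes on the vertical axis, 1 point for each mouse, with 95% Wilson intervals and the number of nuclei. Open points are the libraries numbered 1; the young mice lie between 0.206% and 0.328%, and the old groups span from 0.0696% to 2.16%.

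The share among vascular and border cells moved in part with the total. Fibroblast nuclei made up 29.3%, 60.5% and 31.7% of the fibroblast, endothelial, mural and macrophage barcodes in the young mice, and 43.7%, 17.5% and 38.1% in the old ad libitum mice. They made up 57.4%, 18.5% and 49.5% after acute restriction and 58.7%, 63.9%, 36.7% and 51.1% after long-term restriction. On this scale the long-term difference was 1.22 in log2 odds (exact permutation p = 0.114, adjusted 0.457), and the ageing difference was -0.48.

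The second question is whether the fibroblasts' own transcripts changed. As designed, counts were summed over the nuclei of each mouse, mice with under 20 such nuclei were left out, and a comparison needed at least 2 mice in each group. Only long-term (mice 1, 2 and 4) against acute restriction (mice 1 and 3) met this. None of 8309 genes passed in edgeR's quasi-likelihood test at an adjusted p below 0.05 (0% called; 250 had an unadjusted p below 0.05, smallest adjusted p 0.317), and DESeq2 called 0 as well. Of 14 changes of the processing, 8 gave 0 calls and the others up to 5, with 2 under a replicate block.

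The 5 genes with the smallest p between the 2 restriction schedules were all lower in the fibroblast nuclei than in the other barcodes, and 4 of them are known from neurons. C130073E24Rik stood at 78.7, 65.7 and 26.5 CPM in the long-term mice and at 7.64 and 3.49 CPM in the acute mice. Its log2 difference was 3.31 ± 0.71 (edgeR adjusted p = 0.317). Here and below, the value after ± is an approximate standard error (SE). It is the size of the log2 difference divided by the square root of the F statistic of edgeR's test. Dcc, a netrin receptor, was lower by 1.16 on the log2 scale, with 199, 183 and 248 CPM against 363 and 576 CPM. Cntn4, a neuronal adhesion gene, stood at 161, 87.6 and 67.8 CPM against 264 and 276 CPM. Lrfn5, a synaptic adhesion gene, stood at 213, 186 and 242 CPM against 550 and 335 CPM, and Arpp21, a phosphoprotein gene of neurons, at 199, 139 and 139 CPM against 306 and 328 CPM (edgeR adjusted p = 0.853 and 1). The values of the 2 groups did not overlap for any of these 5 genes. Genes picked by a small p, here and below, tend not to overlap, so such statements are descriptions. The share without overlap among all genes tested is not given. Most UMIs of the 4 neuronal genes came from the 94 mixed nuclei: over all members Dcc stood at 317 CPM, Cntn4 at 147, Lrfn5 at 302 and Arpp21 at 210 CPM, and over the 640 other nuclei at 53.9, 38.3, 62.1 and 55.8 CPM. Neuronal markers moved the same way as these 4 genes: the 6 listed neuron markers summed to 2005 to 2657 CPM in the long-term mice and 3370 to 3645 CPM in the acute mice. Their part in these differences was not tested.

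Ageing and each restriction against old ad libitum could not be fitted as designed, because old ad libitum mice 2 and 4 held 7 and 8 fibroblast nuclei. An alternative added after this was seen took all sums of at least 5 nuclei, which kept all 13 mice and 1950 genes. None passed for ageing (0% called; 146 at an unadjusted p below 0.05), for long-term restriction (0% called; 104) or for acute restriction (0% called; 68) in edgeR. DESeq2 called 1, 0 and 0. A filter of 10 UMIs over all mice in place of edgeR's own filter let 34, 16 and 8 genes pass. These 3 comparisons share the old ad libitum mice, 2 of which rest on under 10 nuclei each.

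Clic4, a gene of the chloride intracellular channel family that also takes part in actin and endothelial biology (chr4:135213969-135272814, minus strand), was nearest to a call in ageing. It stood at 250, 686 and 833 CPM in the young mice and 93.0, 45.7 and 40.7 CPM in the old ad libitum mice, and the groups did not overlap. The values in the last 2 old mice are 1 UMI each. The log2 difference was -2.99 ± 0.56 (edgeR adjusted p = 0.139). Under restriction Clic4 stood at 206, 301 and 269 CPM (acute) and 217, 248, 691 and 203 CPM (long-term). Igfbp5, a further insulin-like growth factor binding protein, stood at 361, 457 and 555 CPM in the young mice and 85.7, 45.7 and 40.7 CPM in the old ones (edgeR adjusted p = 0.397). Its last 2 old values are also 1 UMI each.

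Of the 5 genes with the smallest p for long-term restriction, Cemip and Adamts12 are leading genes of subgroup 4 and Aifm3 of subgroup 3, while Maml3 and Acer3 lead no subgroup. Cemip stood at 1454, 1507 and 3137 CPM in the old ad libitum mice and at 724, 219, 505 and 327 CPM under long-term restriction, with no overlap (log2 difference -2.15 ± 0.61, edgeR adjusted p = 0.686). Under acute restriction it was at 451 and 283 CPM in mice 1 and 3 but at 2665 CPM in mouse 2, the mouse with the largest share of subgroup 4. Adamts12, a metalloprotease gene also highest in subgroup 4, stood at 730, 1964 and 693 CPM in old ad libitum mice and 264, 91.3, 372 and 85.5 CPM under long-term restriction. Aifm3, a leading gene of subgroup 3, went the other way, at 93.0, 45.7 and 81.5 CPM against 250, 288, 160 and 336 CPM (log2 difference 1.63 ± 0.40, edgeR adjusted p = 0.686). Its values in old ad libitum mice 2 and 4 are 1 and 2 UMIs. The part of the subgroup mix in these differences was not tested.

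Within subgroup 4 alone, Adamts12 stood at 2305, 4422 and 1196 CPM in the old ad libitum mice (17, 4 and 3 nuclei), at 346, 1232 and 500 CPM in the acute and at 444, 317, 0 and 639 CPM in the long-term restriction mice. The long-term mice lay below the old ad libitum mice there too. In the other unmixed subgroups the groups overlapped, with Adamts12 at 718, 0 and 470 CPM in the old ad libitum mice and at 357, 122, 455 and 94.9 CPM under long-term restriction. Cemip in subgroup 4 stood at 4897, 3685 and 9704 CPM in the old ad libitum mice and at 3677, 3172, 1020 and 3105 CPM under long-term restriction, so the nearest values almost met. Outside subgroup 4 it overlapped, at 1574, 0 and 235 CPM against 586, 122, 390 and 209 CPM. Aifm3 within subgroup 3 was at 670 CPM in old ad libitum mouse 1 (4 nuclei), at 0 in the single such nucleus of old ad libitum mouse 2, and at 1085 to 1396 CPM in the 5 restricted mice with such nuclei. In the other unmixed subgroups Aifm3 was at 66.1, 88.8 and 81.5 CPM in the old ad libitum mice and 122, 129, 160 and 148 CPM under long-term restriction. The values in old ad libitum mice 2 and 4 are 1 and 2 UMIs there. After acute restriction Aifm3 was at 77.7, 106 and 268 CPM in these subgroups, which overlapped the old ad libitum mice. These values rest on few nuclei and were not tested.

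Acer3, an alkaline ceramidase gene, shared the smallest adjusted p with other genes in both restriction comparisons and was called in neither. It stood at 78.3, 45.7 and 81.5 CPM in the old ad libitum mice, 183, 301 and 192 CPM in the acute and 179, 168, 186 and 150 CPM in the long-term restriction mice. The values in old ad libitum mice 2 and 4 are 1 and 2 UMIs. All 7 restricted mice lay above the 3 old ad libitum mice, and the young mice at 83.4, 114 and 219 CPM overlapped the restricted mice and lay above the old ad libitum mice, the lowest of them narrowly. The adjusted p in edgeR was 0.788 for acute and 0.686 for long-term restriction. Maml3, a Notch coactivator, went the other way at 490, 685 and 1100 CPM in old ad libitum mice, 386, 215 and 283 CPM (acute) and 297, 281, 452 and 324 CPM (long-term), with no overlap and edgeR adjusted p values of 0.996 and 0.686. Ndnf, a secreted neurotrophic factor gene, and Kat2b, a histone acetyltransferase gene, were also among the 5 genes with the smallest p for acute restriction. Ndnf stood at 223, 320 and 326 CPM in the old ad libitum mice and at 87.9, 0 and 66.3 CPM after acute restriction, with 7 and 8 UMIs in old ad libitum mice 2 and 4 (edgeR adjusted p = 0.996). Kat2b stood at 159, 274 and 448 CPM against 76.4, 86.0 and 90.7 CPM (edgeR adjusted p = 0.788). Neither gene's groups overlapped, and neither leads a subgroup.

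A further comparison, added after the data were seen, set the 6 old mice of any diet with at least 20 nuclei against young mice 2 and 3. In it 4 of 6709 genes passed edgeR's test (0.0596% called, 653 at an unadjusted p below 0.05). Olfr1033, annotated as an olfactory receptor gene (chr2:86020633-86045171, plus strand), was lower in old mice by 3.41 ± 0.46 on the log2 scale (edgeR adjusted p = 0.00569). Clic4 was lower by 1.89 ± 0.30 (edgeR adjusted p = 0.0176) and Abi1, a regulator of actin assembly (chr2:22940073-23040241, minus strand, overlapped by Pdss1 on the other strand), by 1.53 ± 0.28 (0.0482). Mapk4, an atypical mitogen-activated protein kinase gene, was higher by 2.04 ± 0.37 (0.0482). Age and diet are joined here, since 5 of the 6 old mice were restricted.

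The values of these 4 genes show how few molecules they rest on. Olfr1033 had 4 UMIs in young mouse 2 and 35 in young mouse 3 (91.5 and 511 CPM), and 15.3 to 43.8 CPM in the old mice. In young mouse 3 a single nucleus held 13 of the 35 UMIs. For Clic4 a single nucleus held 10 of 30 UMIs in young mouse 2 and 24 of 57 in young mouse 3. Clic4 stood at 686 and 833 CPM against 93.0 to 269 CPM, and Abi1 at 503 and 1125 CPM against 232 to 387 CPM. Mapk4 stood at 68.6 and 117 CPM against 311 to 512 CPM. The 2 young mice and the 6 old mice did not overlap for any of the 4. Young mouse 1, left out with 17 nuclei, lay within the old range for 3 of the 4 and just below it for Mapk4, at 27.8 CPM for Olfr1033, 250 CPM for Clic4, 278 CPM for Abi1 and 278 CPM for Mapk4. Of the old mice left out with 7 to 11 nuclei, long-term mouse 3 stood at 691 CPM for Clic4, above young mouse 2. Old ad libitum mouse 4 held 122 CPM of Olfr1033, above young mouse 2, from 3 UMIs. For Mapk4, old ad libitum mice 2 and 4 stood at 137 and 40.7 CPM and acute mouse 2 at 129 CPM, so the 3 young and the 3 old ad libitum mice overlapped. DESeq2 passed 35 genes and a filter of 10 UMIs over all mice 22, with all 4 among them in both. With the replicate number as a block 3 genes passed, and 1 of them was among these 4. Without young mouse 3, 1 gene passed, which was none of these 4, and without nuclei of high doublet score none did. No gene passed when sums of at least 10 nuclei, which include young mouse 1, were used.

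These 4 genes also separated the subgroups. Clic4 stood at 666 CPM in subgroup 2 and at 81.02 to 171 CPM in subgroups 1, 3, 4 and 8, and Abi1 at 686 against 199 to 341 CPM. Olfr1033 stood at 159 against 10.9 to 30.4 CPM. Mapk4 was the reverse, at 17.4 CPM in subgroup 2, 101 CPM in subgroup 4 and 700 and 922 CPM in subgroups 1 and 3, with no UMI in subgroup 8. Subgroup 2 was 52.6% and 37.5% of the unmixed nuclei in young mice 2 and 3 and 11.8% to 42.9% in the 6 old mice. Within subgroup 2 alone, Clic4 was at 1729 and 2489 CPM in young mice 2 and 3, from 10 and 9 nuclei, and at 73.4 to 665 CPM in the 6 old mice. Abi1 was at 835 and 2987 CPM against 318 to 753 CPM there. Olfr1033 was at 238 and 1539 CPM there, against 46.3 to 120 CPM in the 6 old mice. In the smaller sums Olfr1033 was at 88.0 CPM in young mouse 1 (1 UMI) and 441 CPM in old ad libitum mouse 4 (3 UMIs). The smaller sums did not follow this gap: in subgroup 2 young mouse 1 (4 nuclei) stood at 528 CPM for Clic4 and 176 CPM for Abi1, long-term mouse 3 (5 nuclei) at 1190 CPM for Clic4, and old ad libitum mouse 4 (2 nuclei) at 1030 CPM for Abi1. Outside subgroup 2, Clic4 was at 0 and 39.0 CPM in these young mice, on 0 and 1 UMI, and at 72.1 to 153 CPM in the 6 old mice, the reverse of the direction called. Abi1 there stood at 257 and 273 CPM, against 182 to 248 CPM in the 6 old mice. Mapk4 outside subgroup 2 was at 171 and 195 CPM in the young mice and at 473 to 793 CPM in the old mice. In the smaller sums it was at 387 CPM in young mouse 1, at 269 and 56.4 CPM in old ad libitum mice 2 and 4, at 53.1 CPM in acute mouse 2 and at 766 CPM in long-term mouse 3. These values within subgroups were not tested.

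Other measures differed between the mice compared as well. The fibroblast nuclei of young mice 2 and 3 had medians of 1610 and 1961 UMIs, against 2095 to 3753 in the 6 old mice. The 6 neuron markers summed to 1304 and 1563 CPM in them, against 2005 to 3645 CPM. In the mice left out of the comparison these markers stood at 556 CPM in young mouse 1 and at 822 to 1467 CPM in the 4 old mice, within the range of the young mice. With the median depth as a covariate no gene passed, but a lost call alone does not measure the part of depth. The part of depth and of neuronal RNA in the 4 calls was not tested.

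**Figure D5:**
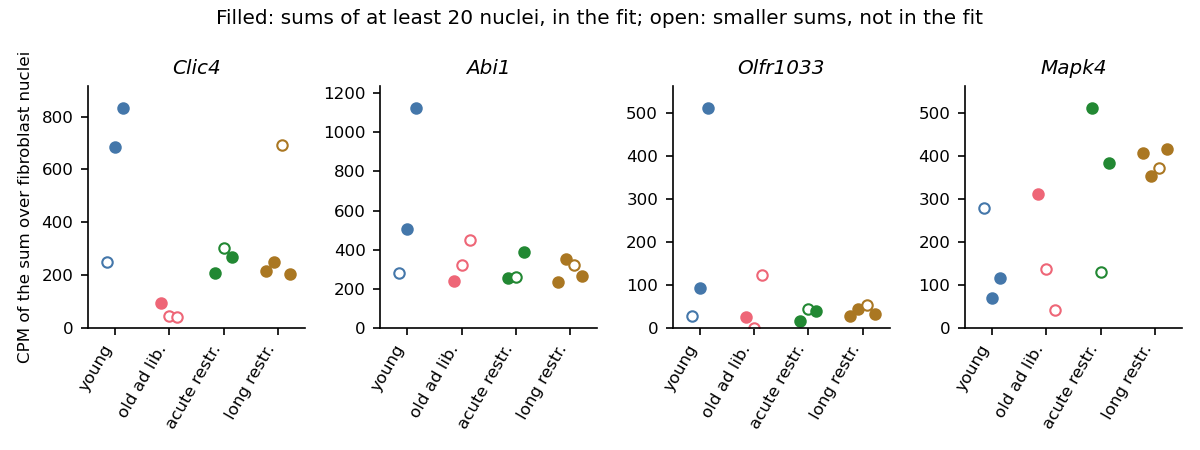
CPM of 4 genes in the summed fibroblast nuclei of each mouse, on the vertical axes, by group. Filled points are sums of at least 20 nuclei, which entered the comparison of old with young mice; open points are smaller sums. Young mice 2 and 3 lie apart from the filled old points, and young mouse 1 lies near them.

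No gene of the 17 lists passed in the 3 age and restriction comparisons, in long-term against acute restriction, or in old against young mice. The lists described here and below were picked from the 17 after their values were seen, and other lists departed from all genes too. After acute restriction 6 of 8 matrix protease genes were higher (median log2 difference 0.66), against 49.2% of all genes. In old mice of any diet against young mice 9 of 12 clock genes were higher (median 0.62), against 54.5% of all genes. Of 18 tested solute carriers, 13 were lower and 5 higher with age in the ad libitum mice (median log2 difference -0.49, against 0.03 for all 1950 genes, of which 48.5% were lower). The rule genes Slc6a13 and Slc47a1 are on this list and were not taken out of the counts in this paragraph. The same 18 had medians of 0.40 under long-term and 0.20 under acute restriction, where the medians of all genes were 0.00 and -0.01. These comparisons share the old ad libitum mice, so their signs are not independent of each other. In old mice of any diet against young mice, of 28 tested solute carriers 12 were lower and 16 higher (median 0.04). Of all 6709 genes 54.5% were higher (median 0.08), so this count lay near the share of all genes.

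Basement membrane genes had the reverse signs. All 7 tested had positive differences with age in the ad libitum mice (median 0.48) and negative ones for long-term (median -0.71) and acute restriction (median -0.62), where 51.5%, 49.6% and 50.8% of all tested genes had those signs. These 3 comparisons share the old ad libitum mice, so the signs are not independent of each other. Lama1, 1 of these 7, stood at 835, 731 and 937 CPM in the old ad libitum mice, 844, 1160 and 429 CPM (acute) and 622, 277, 1170 and 513 CPM (long-term), and the groups overlapped. Of the 7 genes, 6 had their highest level in subgroup 4. In old mice of any diet against young mice, 13 basement membrane genes were tested, with 7 higher and 6 lower (median 0.02). Of all genes in that comparison 54.5% were higher (median 0.08). Growth factor genes (9 tested) had medians of 0.24, -0.30 and -0.13 in ageing, long-term and acute restriction. Of 25 tested in old mice of any diet against young mice, 17 were higher and 8 lower (median 0.49, against 0.08 for all genes, of which 54.5% were higher). No interferon, MHC class I or scar gene reached the expression filter in these 3 comparisons, and of 10 interferon and MHC class I genes tested between long-term and acute restriction none passed.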

How the data were processed

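Single-nucleus libraries of 13 hippocampi were analysed from the filtered count matrices that the authors deposited, as whole-number UMI counts per gene and barcode. Per the submitters' processing notes these were made with Cell Ranger 4.0.0 on mm10; whether intronic reads were counted and which gene annotation was used are not given in the sources used here. Nothing marks a removal of doublets or free RNA before deposit, per the file headers. Overlapping genes on opposite strands may share reads.

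Of 105759 barcodes, the 105427 that held 500 genes or more, and mitochondrial UMIs of 5% or less, were retained. The membership rule was applied to each, and rules of the same form, with 6 markers each, were applied to the other classes. Doublets were scored per library on simulated pairs, with 0.8% expected per 1000 barcodes, and kept in the main values. Members were clustered with scanpy 1.11.5 and leidenalg 0.10.2 (1500 variable genes, 20 principal components, 15 neighbours, resolution 0.5). Gene positions were matched by ID to GENCODE vM21 (188 of 188 named genes).

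The mouse was the replicate. Raw counts were summed over the members of a mouse, and sums of at least 20 nuclei were tested with edgeR 4.0.16 (TMM, its expression filter, robust quasi-likelihood fit, all groups in 1 fit), with Benjamini-Hochberg adjustment over all genes and a threshold of 0.05. DESeq2 1.42.0 was an alternative. Old ad libitum mice held too few nuclei for 3 of the 4 planned comparisons, so these were fitted on sums of at least 5 nuclei, an alternative added after seeing the data, as was old against young over all diets. Shares were compared as log2 odds (0.5 added to each count) with exact permutation tests. The fits were tested on simulated counts, in which most 2-fold changes were missed. For long-term against acute restriction, 65 of 92 simulated 4-fold and 14 of 88 simulated 2-fold changes were called, along with 12 unchanged genes. For old against young these were 42 of 80 and 8 of 85, with 3 unchanged genes. For ageing on sums of at least 5 nuclei they were 73 of 89 and 19 of 93, with 3 unchanged genes. Labels do not say whether mice shared a cage, cohort or sequencing run; the libraries numbered 1 were treated as a possible batch only in alternatives.

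Named genes were, per comparison, those called without overlap between the groups and, with under 5 calls, the 5 of smallest p. From each of the 17 lists came the 4 with the most UMIs and the 1 of smallest p. The 25 leading genes (at least 200 UMIs), the rule genes, subtype markers with at least 100 UMIs and 8 leading genes a subgroup completed them. Slc47a2 was named outside this rule after its values were seen. Members and lists were chosen with earlier results of these data known. Alternatives changed the marker threshold, the number of markers, depth, doublets, normalization, filters and the minimum of nuclei, and left out each mouse in turn.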

Additional observations from a re-analysis of the deposited data

Results flagged for a closer look

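Among the 6 old mice with at least 20 fibroblast nuclei, the CPM of Clic4 in old ad libitum mouse 1 stood apart at 93.0, while the 5 restricted mice lay between 203 and 269 CPM. The gap to the nearest of the others exceeded Dixon's 95% critical value for 6 samples. Of 8 sets of values examined in this way 1 was marked, and chance marks about 1 in 20. The other 2 old ad libitum mice, with 7 and 8 nuclei, held 1 UMI of Clic4 each. No explanation was tested.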

How the results depend on the processing

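The limits are few nuclei and few mice: 5 mice held under 20 fibroblast nuclei, and 2 of 3 old ad libitum mice under 10. For long-term against acute restriction (0 calls), 1 gene passed with sums of at least 10 nuclei or a term for the libraries numbered 1, 2 with a replicate block or without high doublet scores, 3 with 25 marker UMIs per 10000 and 5 with depth as a covariate. Leaving out 1 mouse gave 0 to 5 calls, with 5 without long-term mouse 1, 3 without long-term mouse 4 and 1 without acute mouse 3. For ageing (0), DESeq2 gave 1, the filter of 10 UMIs 34, leaving out members that met another class's rule 8, and leaving out mixed subgroups 1. Leaving out 1 mouse gave 0 to 1, with 1 without young mouse 1. The filter of 10 UMIs gave 16 for long-term and 8 for acute restriction, and leaving out 1 mouse gave 0 for both.

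For old against young (4), DESeq2 gave 35, the filter of 10 UMIs 22, no normalization factors 2, a term for the libraries numbered 1 2, 25 marker UMIs 1, and sums of at least 10 or 5 nuclei, depth as a covariate, or no high doublet scores 0. Leaving out 1 mouse gave 1 to 5, with 1 without young mouse 3 (none of the 4 genes), 1 each without acute mouse 1, long-term mouse 1 or long-term mouse 4, and 2 without acute mouse 3. Without a young mouse, or without an acute mouse in long-term against acute restriction, an arm holds 1 mouse, which is assumed to vary like the other mice in the fit. The cause of these changes was not tested.

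Share differences for ageing (0.11) turned to -0.029 without high doublet scores, -0.26 without members that met another rule, -0.48 among vascular barcodes and -1.53 without the libraries numbered 1, and rose to 0.73 with 4 markers and 1.44 with barcodes thinned to 2000 UMIs. Leaving out 1 mouse gave -1.39 to 1.06 for ageing (-0.02 without young mouse 1), 0.69 to 3.14 for long-term restriction, -0.043 to 2.41 for acute restriction (-0.043 without old ad libitum mouse 2) and -0.18 to 1.31 for long-term against acute.

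Deviations of expression from the group mean correlated between -0.20 and 0.22 over 10 pairs of same-numbered mice, and between -0.25 and 0.27 for differently numbered mice. Old ad libitum mouse 1 correlated at 0.20 with long-term mouse 1 and 0.22 with acute mouse 1, but at -0.19 with young mouse 1. Long-term and acute mouse 1 correlated at 0.09. Some sums rest on 7 to 11 nuclei, so these values cannot tell whether mice of equal number were paired or shared a batch. With the replicate block the share differences were 0.18, 1.68, 0.84 and 0.84, and old against young had 3 calls, of which 1 was among the 4 called without it. Not run for want of nuclei were long-term against acute without the libraries numbered 1, the 3 comparisons with old ad libitum mice at 10 or 20 nuclei, and old against young without mixed nuclei or members that met another rule.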

Other observations

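The 5 genes with the smallest p for ageing were Clic4 and Igfbp5, given above, and Elmo1, Unc13c and Cacna2d3. Elmo1, a regulator of Rac and of cell engulfment, stood at 27.8, 183 and 87.6 CPM in the young mice and at 343, 639 and 407 CPM in the old ad libitum mice, with no overlap and a log2 difference of 1.95 ± 0.48 (edgeR adjusted p = 0.397, sums of at least 5 nuclei). All 7 restricted mice, at 293 to 512 CPM, also lay above the 3 young mice. Elmo1 was highest in subgroup 3, at 1237 CPM against 268 to 318 CPM in subgroups 1, 2, 4 and 8. Outside subgroup 3 it stood at 31.2, 230 and 132 CPM in the young mice and at 380, 88.8 and 407 CPM in the old ad libitum mice, and the groups overlapped. Old ad libitum mouse 2 held 10 UMIs of Elmo1 in its 1 subgroup 3 nucleus and 1 UMI in its other unmixed nuclei. Young mouse 1 held 1 UMI in its unmixed nuclei. Elmo1 stood at 1031 CPM in border macrophages and 393 CPM over all fibroblast nuclei.

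Unc13c, a gene of synaptic vesicle priming, stood at 0, 137 and 87.6 CPM in the young mice and at 531, 411 and 448 CPM in the old ad libitum mice (edgeR adjusted p = 0.464). Within the fibroblast nuclei it was near 0 in subgroup 2 (1.94 CPM) and at 1110 CPM in subgroup 3. Cacna2d3, a calcium channel subunit gene, stood at 83.4, 22.9 and 58.4 CPM against 421, 91.3 and 244 CPM (edgeR adjusted p = 0.397). It was lower in the fibroblast nuclei (233 CPM) than in the other barcodes (706 CPM), and the part of neuronal RNA in its difference was not tested. Neither gene's groups overlapped. For Cacna2d3 this rests on few UMIs. The sums of young mice 1 and 2 and old ad libitum mouse 2 held 35975, 43720 and 21894 UMIs of all genes.

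Igfbp5 was highest in subgroup 2, at 401 CPM, and the young mice lay above the old ad libitum mice there too. Within subgroup 2 it stood at 880, 835 and 1267 CPM in the young mice (4, 10 and 9 nuclei) and at 245, 320 and 147 CPM in the old ad libitum mice (8, 1 and 2 nuclei). The values in old ad libitum mice 2 and 4 are 1 UMI each. The restricted mice with subgroup 2 nuclei lay between 120 and 533 CPM. These values were not tested.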
